A study of Homo sapiens with 4 samples.

Results

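The genes described here are ATF4, a transcription factor of the integrated stress response, and genes that ATF4 is known to drive together with the cytosolic tRNA synthetases. They were compared between MDA-MB-231 cells with and without depletion of DROSHA. Members were chosen by name as known genes of the pathway, 44 in all, with earlier results of these data in view, and 40 of them had a probe set with a gene symbol among the 18603 probe sets of the array, which name 15870 genes. ATF5, MARS1, QARS1 and VARS1 were not analysed here. Each measured member was represented by 1 probe set, and the 40 fall into 5 roles: 5 transcription factors, 7 stress and feedback proteins, 8 enzymes of amino acid and one-carbon metabolism, 6 amino acid transporters and 14 cytosolic tRNA synthetases.

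Total RNA was hybridised to 4 Affymetrix whole-transcript arrays, with 2 replicates of shDROSHA cells and 2 of shNC cells that the labels call biological. The cells were MDA-MB-231, an established line from a human breast carcinoma with mesenchymal features, grown in L-15 medium with serum, and shDROSHA denotes a short hairpin RNA against DROSHA, the nuclear ribonuclease that releases microRNA hairpins from their primary transcripts. The sources differ on the control, which is shNC in the labels and a mock transfection in the study's description, and while the labels give the hairpins as transfected, they do not state how many were used, whether cells were selected or when they were harvested. DROSHA itself read 8.71 and 8.74 on the shDROSHA arrays and 9.66 and 9.76 on the shNC arrays (log2 signal), which is 50.4% of the control level (log2 fold change -0.99, SE 0.073, limma adjusted p = 3.89e-06).

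ATF4 is made mainly when translation is restrained. Kinases that sense amino acid shortage, unfolded protein, double-stranded RNA or haem deficiency phosphorylate the initiation factor eIF2, which lowers general translation but lets ribosomes reach the ATF4 coding sequence past short upstream reading frames. ATF4, usually paired with a C/EBP protein, then switches on amino acid synthesis, amino acid import and tRNA charging, and also DDIT3 and TRIB3, which act in prolonged stress. The pathway is therefore read better from the mRNAs of its targets than from ATF4 mRNA, whose level need not follow the protein.

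A short composite element for ATF4 and C/EBP marks many of these promoters, and the matches are shown because they pick out, from sequence alone, members with such an element near the transcript start. The element TGATGNAA was searched on both strands of RefSeq promoter windows (GRCh38.p14) reaching from 250 bases before to 50 bases after each annotated start. Of the 44 members 36 had a window, and 13 of the 36 (36.1%) held a match, against 4.46% of all 27305 genes with a window and 3.62% of all 35116 windows of the same length. Many of the members were listed as ATF4 targets, some of them through this element, so the higher share is partly built into the list. The 12 measured members with a match are given below over 30 bases, on the strand that reads TGATGNAA, with the match in capitals.
NARS1, chr18:57621804-57621833, minus strand: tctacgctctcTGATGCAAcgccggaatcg
SLC3A2, chr11:62881719-62881748, minus strand: ggagcTGATGTAAggagtcctgcacattac
CEBPG, chr19:33374060-33374089, plus strand: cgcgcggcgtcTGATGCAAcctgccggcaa
AARS1, chr16:70289675-70289704, plus strand: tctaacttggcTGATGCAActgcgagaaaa
SLC1A4, chr2:64989381-64989410, minus strand: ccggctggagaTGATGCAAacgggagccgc
ASNS, chr7:97872458-97872487, minus strand: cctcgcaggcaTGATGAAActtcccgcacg
TARS1, chr5:33440956-33440985, minus strand: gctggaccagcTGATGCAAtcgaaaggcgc
CHAC1, chr15:40953251-40953280, minus strand: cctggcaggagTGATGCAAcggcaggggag
IARS1, chr9:92293692-92293721, plus strand: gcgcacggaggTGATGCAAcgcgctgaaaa
CARS1, chr11:3057407-3057436, plus strand: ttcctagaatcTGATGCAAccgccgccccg
SLC1A5, chr19:46784893-46784922, minus strand: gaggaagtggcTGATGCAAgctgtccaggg
GARS1, chr7:30594834-30594863, minus strand: ggctcggagcaTGATGAAAtcgccgcgtaa

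The spelling TGATGCAA made up 9 of the 12 matches, TGATGAAA 2 (ASNS and GARS1) and TGATGTAA 1 (SLC3A2). In 8 genes the match began within 50 bases of the start. The farthest upstream lay 209 bases before the start in CHAC1 and 187 bases before it in AARS1. In TARS1, NARS1 and SLC3A2 it began 2, 14 and 37 bases after the start and so lies in transcribed sequence. It pointed along the gene in 4 cases and against it in 8. SLC7A11, LARS1, NUPR1, PSPH, PYCR1, SHMT2, VARS1 and YARS1 had no entry among the windows.

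After DROSHA depletion these genes did not move as a unit. In a limma fit 2 of the 40 rose, 3 fell and the other 35 missed an adjusted p under 0.05, where the spread of a probe set is shrunk towards that of others of like signal and p is adjusted over all probe sets. PPP1R15A and MTHFD2 rose, by 1.44-fold and 1.22-fold. VLDLR, DDIT4 and SLC7A11 fell, by 1.70-fold, 1.63-fold and 1.28-fold. The median log2 fold change of the members was -0.0087, against 0.0009 over all probe sets, and after centring of every array the members' median was 0.02. In bulk RNA a lower signal from fewer cells of a kind and one from less RNA per cell cannot be told apart.

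That share of 12.5% called stands beside 6.41% of all probe sets, with 3.12% called higher and 3.28% called lower. Calls depend on signal, since brighter probe sets vary less. In the brightest of 5 equal signal classes, which holds 24 of the 40 members, 15.6% of all probe sets were called, and 2 of the 24 members. When arrays were first centred at a common median, 62.5% of the calls among all probe sets were higher, against 48.7% as deposited, and the members' calls went from 2 higher and 3 lower to 4 higher and 3 lower. Under a limma prior with 1 constant variance for all probe sets, 0 members were called, and 0.00538% of the array, which is 1 probe set. At an unadjusted p under 0.05 that prior had 5 of the 40 members and 14.9% of the array. Each call below therefore rests on letting the variance follow signal, and DROSHA itself was not called under the constant prior (limma adjusted p = 0.0843).

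**Figure D1:**
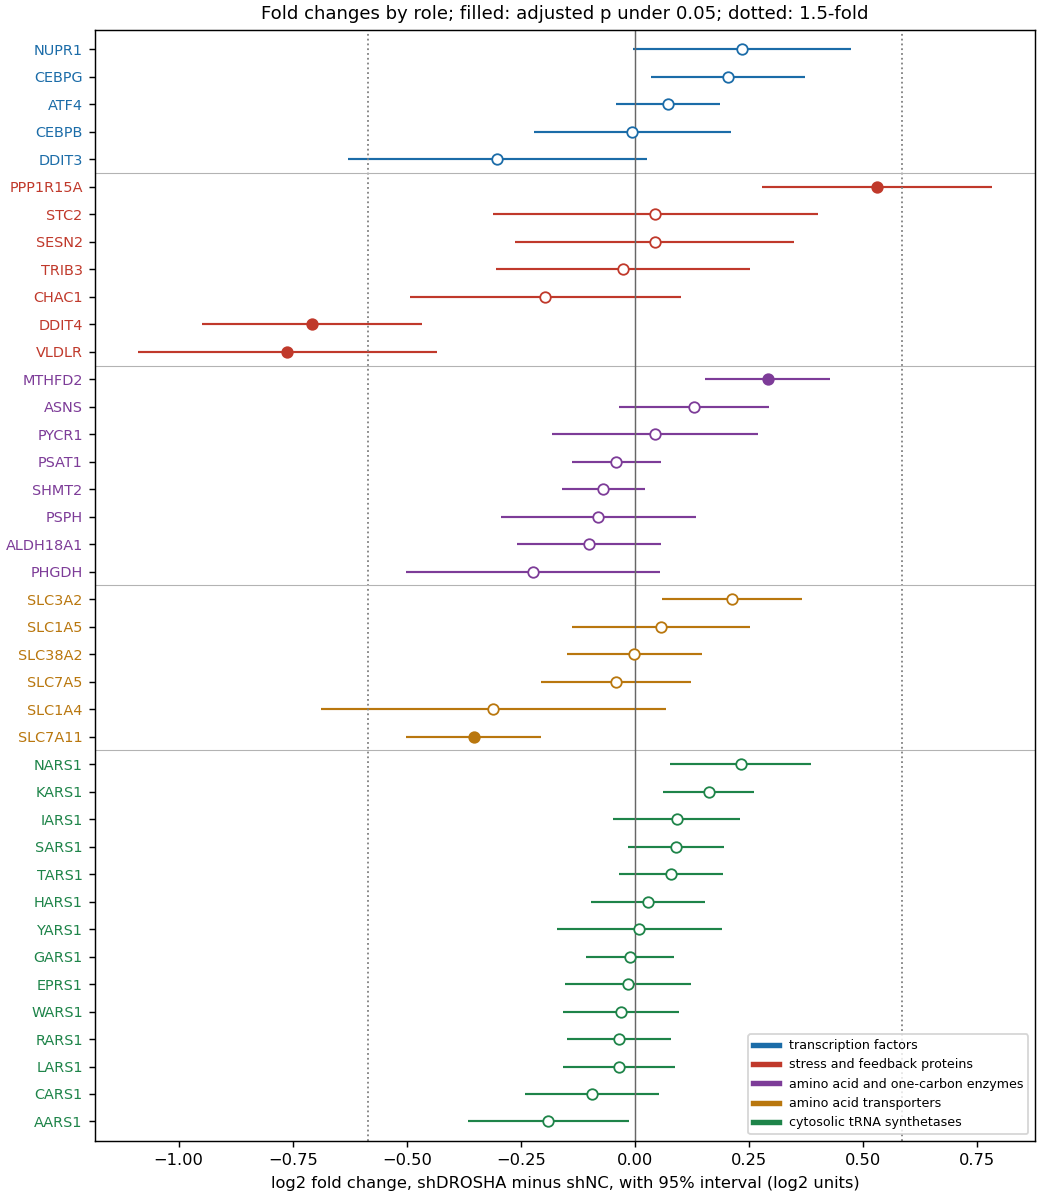
Log2 fold change of each measured member (x axis, shDROSHA minus shNC, log2 units) with its 95% interval from limma, grouped by role. Filled points passed an adjusted p of 0.05 and dotted lines mark a 1.5-fold difference. The 5 filled points are PPP1R15A and MTHFD2 to the right and VLDLR, DDIT4 and SLC7A11 to the left, and all 14 synthetase intervals lie inside the dotted lines.

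Among the transcription factors, ATF4 mRNA was close to its control level. It read 10.62 and 10.56 on the shDROSHA arrays and 10.51 and 10.52 on the shNC arrays (log2 signal). Both depleted arrays lay above both controls, but by little: the log2 fold change was 0.07 (SE 0.053, 95% interval -0.04 to 0.19, limma adjusted p = 0.514). The interval ends well short of a 1.5-fold difference, which is 0.58 on this scale.

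DDIT3, which encodes CHOP, the factor of the late and pro-apoptotic phase of the response, read 6.63 and 6.29 against 6.73 and 6.79. Both depleted arrays were the lower, with shDROSHA replicate 2 farthest from the controls. The mean signal of 6.61 was below the median of all probe sets (7.22), and whether the probe set was above background was not tested. The log2 fold change of -0.30 did not pass (95% interval -0.63 to 0.03, limma adjusted p = 0.306), and it was -0.13 without shDROSHA replicate 2.

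The remaining 3 factors did not pass either. CEBPG, a C/EBP protein that pairs with ATF4 and carries the composite element in its own promoter, was higher on both depleted arrays, at 9.03 and 9.11 against 8.92 and 8.82, with a log2 fold change of 0.20 (95% interval 0.04 to 0.37, limma adjusted p = 0.157). NUPR1, a stress-induced chromatin protein, read 8.40 and 8.75 against 8.41 and 8.28, so the groups overlapped. Its difference of 0.23 rests on shDROSHA replicate 2, being 0.06 without that array and 0.41 without shDROSHA replicate 1, when it passed (adjusted p = 0.00416). CEBPB, a C/EBP partner with many other roles, differed by -0.0061. At an unadjusted p under 0.05 the fit had 1 of the 5 factors, CEBPG.

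The stress and feedback proteins held the largest changes of the 40, in both directions. DDIT4 (probe set TC1000007990.hg.1), also called REDD1, restrains the growth kinase complex mTORC1 under stress. It read 7.42 and 7.61 on the shDROSHA arrays and 8.13 and 8.31 on the shNC arrays, so the groups stood clearly apart. The means were 7.51 ± 0.134 and 8.22 ± 0.133 (log2, SD, n = 2 each), a fall to 61.2% of the control level (log2 fold change -0.71, SE 0.112, limma adjusted p = 0.00186). DDIT4 kept its call without any 1 of the 4 arrays, at -0.80 to -0.61.

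VLDLR (TC0900006481.hg.1), a lipoprotein receptor that ATF4 induces in stressed cells, read 5.77 and 5.87 against 6.53 and 6.63. Both depleted arrays were the lower (log2 fold change -0.76, SE 0.152, limma adjusted p = 0.00827). Values on all 4 arrays lay in the range of the blood and endothelial markers, whose mean signals ran from 4.41 to 6.98. Whether the probe set was above background was not tested. Its signal is in the second dimmest of the 5 classes, where 1.94% of probe sets were called. Without shNC replicate 2 the difference was -0.71 and did not pass (adjusted p = 0.0654).

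PPP1R15A (TC1900008496.hg.1), also called GADD34, recruits the phosphatase that removes the phosphate from eIF2 and so ends the response. It read 8.27 and 8.28 on the depleted arrays and 7.92 and 7.57 on the controls. The depleted arrays were almost equal and the controls were 0.35 apart (8.27 ± 0.013 against 7.74 ± 0.25, log2 mean ± SD, n = 2 each). The log2 fold change was 0.53 (SE 0.117, limma adjusted p = 0.0145). It grew to 0.71 when shNC replicate 1 was left out and shrank to 0.35 when replicate 2 was, and in the latter fit it did not pass (adjusted p = 0.142). Of the 36 members with a promoter window PPP1R15A alone (2.78%) held the other element searched, the palindromic TGACGTCA bound by CREB and ATF proteins. This element was added after the values were seen and occurs in 2.25% of all genes with a window, a share close to that of the members. It began 58 bases before the start, with the match in capitals.
PPP1R15A, chr19:48872352-48872381, plus strand: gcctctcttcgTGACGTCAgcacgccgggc

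The other 4 of this role did not pass. TRIB3, a pseudokinase that is among the most responsive ATF4 targets and feeds back on ATF4, read 6.85 and 6.88 against 6.91 and 6.87. The groups overlapped, and the log2 fold change was -0.03 (95% interval -0.31 to 0.25, limma adjusted p = 0.948), turning to 0.0061 with centred arrays. CHAC1, an enzyme that breaks down glutathione, was lower on both depleted arrays with a log2 fold change of -0.20 (95% interval -0.49 to 0.10). SESN2, a sestrin that restrains mTORC1, and STC2, a secreted glycoprotein, each differed by 0.04. Their signals, like those of TRIB3, CHAC1 and VLDLR, were below the median of all probe sets. The mean signals of these genes also lay between 4.41 and 6.98, the range of the blood and endothelial markers. Whether their probe sets were above background was not tested.

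**Figure D2:**
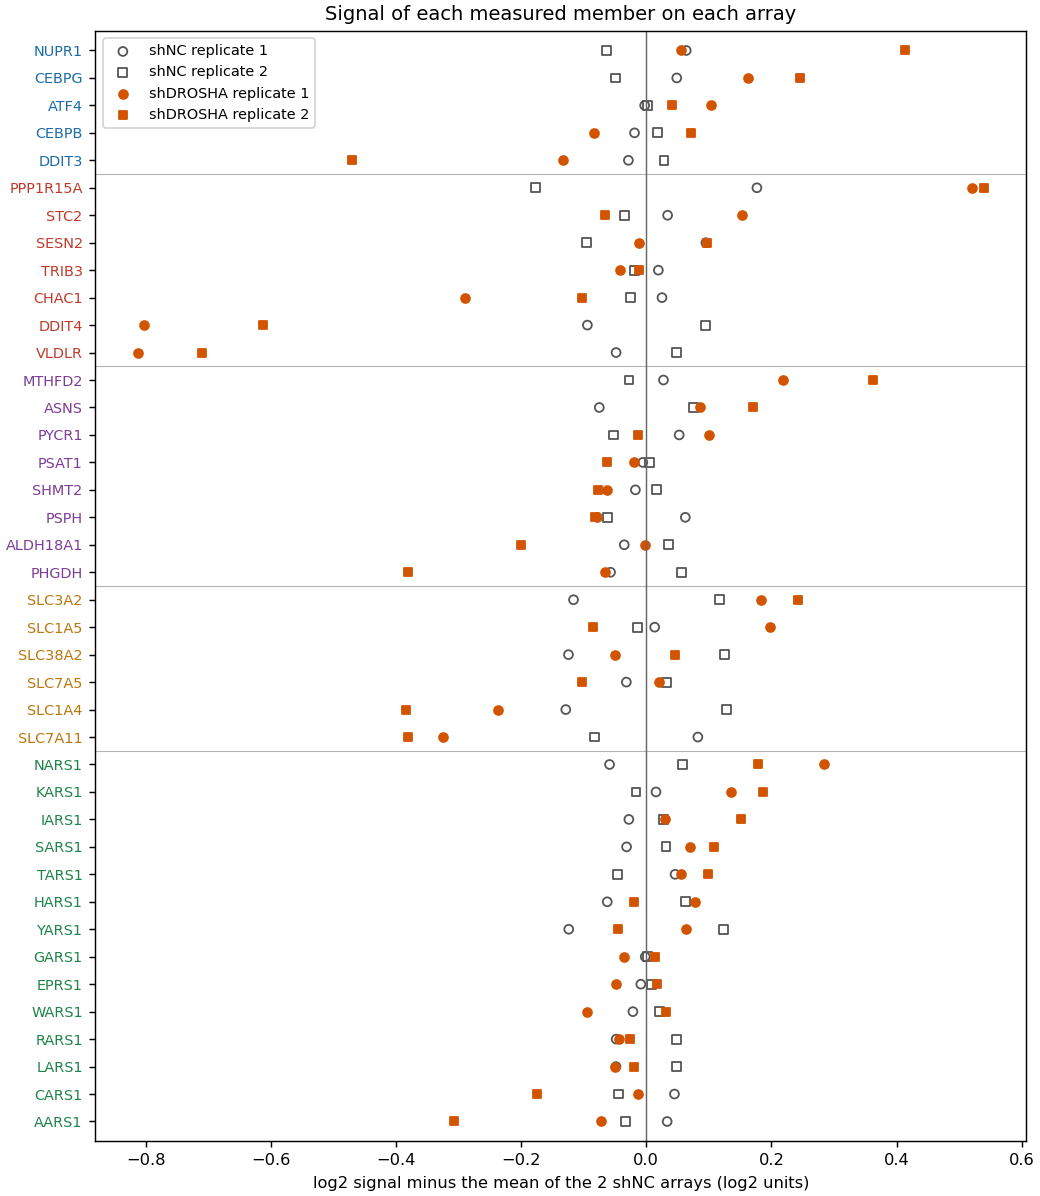
Log2 signal of each measured member on each of the 4 arrays, drawn relative to the mean of its 2 shNC arrays (x axis, log2 units), in the same order by role. For DDIT4, VLDLR and SLC7A11 both filled points lie left of both open points, and for PPP1R15A and MTHFD2 both lie to the right. The groups do not overlap in 22 of the 40 rows and mix in 18. Among all probe sets 47.8% do not overlap.

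The enzymes were mostly level, with 1 exception. MTHFD2 (TC0200008071.hg.1), the mitochondrial dehydrogenase and cyclohydrolase of the folate cycle, read 10.19 and 10.33 on the depleted arrays and 10.00 and 9.94 on the controls. Both depleted arrays were higher, at 122% of the control level (log2 fold change 0.29, SE 0.064, limma adjusted p = 0.0143). Its call was lost without shDROSHA replicate 2 (0.22, adjusted p = 0.063) and without shNC replicate 2 (0.26, adjusted p = 0.0785).

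ASNS makes asparagine and is the classical reporter of amino acid shortage through the element printed above. It read 9.31 and 9.39 against 9.15 and 9.30. shDROSHA replicate 1 was nearly level with shNC replicate 2, and the log2 fold change of 0.13 did not pass (95% interval -0.04 to 0.29, limma adjusted p = 0.402). It ranged from 0.053 without shNC replicate 1 to 0.20 without shNC replicate 2. SHMT2, which precedes MTHFD2 in the mitochondrial one-carbon route, differed by -0.07 (95% interval -0.16 to 0.02).

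The serine synthesis enzymes PHGDH, PSAT1 and PSPH were lower on both depleted arrays by log2 fold changes of -0.22, -0.04 and -0.08, and none passed. With centred arrays the differences were -0.19, -0.0080 and -0.05. Over the whole array 24.4% of probe sets were lower on both depleted arrays than on both controls. PHGDH read 7.45 and 7.14 against 7.46 and 7.58, so its difference again lay mostly in shDROSHA replicate 2. ALDH18A1 and PYCR1, enzymes of proline synthesis, differed by -0.10 and 0.04 with overlapping groups, and ALDH18A1 was -0.0013 without shDROSHA replicate 2. In all 8 enzymes the 95% interval stayed within 1.5-fold.

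Among the transporters SLC7A11 fell and 5 did not pass. SLC7A11 (TC0400011920.hg.1) is the cystine and glutamate exchanger that feeds glutathione synthesis, and NRF2 drives it as well as ATF4. It read 9.71 and 9.65 on the depleted arrays and 10.11 and 9.95 on the controls. All of the depleted values lay below the controls, at 78.3% of their level (log2 fold change -0.35, SE 0.069, limma adjusted p = 0.00702). Without shNC replicate 1 it was -0.27 and did not pass (adjusted p = 0.109).

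SLC3A2, the heavy chain that carries SLC7A11 and SLC7A5 to the cell surface, read 10.30 and 10.36 against 10.00 and 10.24. Both depleted arrays were higher, and the log2 fold change of 0.21 did not pass (95% interval 0.06 to 0.37, limma adjusted p = 0.104). It ranged from 0.10 without shNC replicate 1 to 0.33 without shNC replicate 2, and passed in the latter fit (adjusted p = 0.0176) and without shDROSHA replicate 1 (adjusted p = 0.0172). SLC7A5, the light chain that imports leucine and other large neutral amino acids, differed by -0.04 with overlapping groups. The neutral amino acid carriers SLC1A5 and SLC38A2 differed by 0.06 and -0.0017, also with overlap. SLC1A4, a related carrier and the dimmest of the 40 members at a mean signal of 5.55, was lower by -0.31 with a wide interval (-0.69 to 0.07).

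The 14 measured cytosolic tRNA synthetases, which attach amino acids to their tRNAs, formed the most level of the 5 roles. In the fit as deposited 0 of 14 were called, while with centred arrays KARS1 and NARS1 passed and 12 did not. The median log2 fold change was -0.0011 as deposited and 0.03 with centred arrays, and single values ran from -0.19 to 0.23. At an unadjusted p under 0.05 limma had 3 of the 14, against 19.3% of all probe sets and 37.9% of the brightest class, where all 14 lie. The 95% intervals of all 14 together spanned -0.37 to 0.39, so a 1.5-fold change lay outside every one of them. Their mean signals ran from 9.35 to 11.2, a range where differences of this size are measured with SEs of 0.045 to 0.084.

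KARS1, the lysyl-tRNA synthetase, came closest to a call. It read 11.27 and 11.32 on the depleted arrays and 11.15 and 11.12 on the controls, which do not overlap. The log2 fold change was 0.16 (SE 0.046, limma adjusted p = 0.0546), and the adjusted p ran from 0.0262 to 0.427 over the other settings. NARS1, the asparaginyl-tRNA synthetase, read 9.67 and 9.57 against 9.33 and 9.45, with a log2 fold change of 0.23 (SE 0.072, limma adjusted p = 0.076). AARS1, the alanyl-tRNA synthetase, leaned the other way at 9.38 and 9.14 against 9.48 and 9.42 (log2 fold change -0.19, limma adjusted p = 0.216). That difference was -0.31 without shDROSHA replicate 1, when it passed (adjusted p = 0.0102), and -0.07 without shDROSHA replicate 2.

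Synthetases of the multi-synthetase complex, a cytosolic assembly held together by the AIMP scaffolds, were not compared with the free ones by a test. Of its 7 members listed here 5 were measured, and 0 were called (limma), with KARS1 at an unadjusted p under 0.05. EPRS1, LARS1 and RARS1 differed by -0.02, -0.04 and -0.03, IARS1 by 0.09 and KARS1 by 0.16. Among the free synthetases, besides NARS1 and AARS1, GARS1 differed by -0.01, HARS1 by 0.03, SARS1 by 0.09, TARS1 by 0.08, CARS1 by -0.09 (-0.013 without shDROSHA replicate 2), WARS1 by -0.03 and YARS1 by 0.0091. The narrowest interval belonged to GARS1, which read 11.21 and 11.26 against 11.25 and 11.25 (95% interval -0.11 to 0.09).

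**Figure D3:**
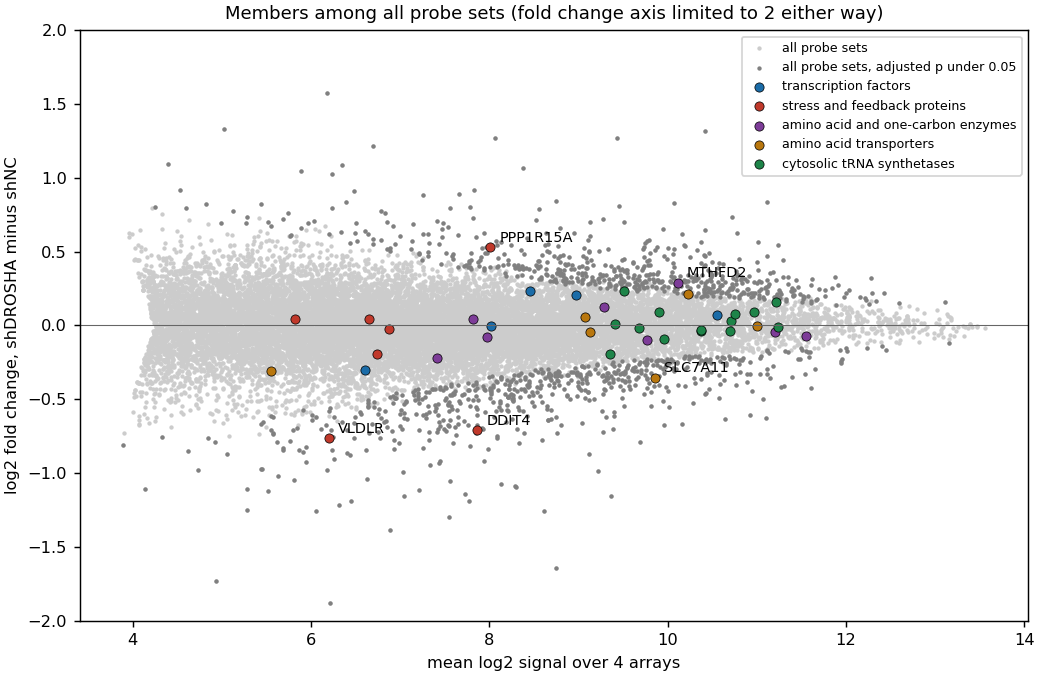
Mean log2 signal over the 4 arrays (x axis) against log2 fold change, shDROSHA minus shNC (y axis), for all 18603 probe sets in grey, those with adjusted p under 0.05 in darker grey, and the 40 members colored by role. The fold change axis leaves out 3 probe sets beyond 2. The synthetases lie at the bright end close to zero, and of the 5 labelled members MTHFD2 and SLC7A11 lie inside the cloud of the bright probe sets, which runs from -1.15 to 1.32.

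Read by array rather than by test, the groups did not overlap at 22 of the 40 members (55.0%), 11 higher and 11 lower. The same was true of 47.8% of all probe sets, 23.4% higher and 24.4% lower. The smallest two-sided p of an exact permutation test of 2 arrays against 2 is 0.333, so such separation carries no call of its own.

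Members with and without the composite element are given side by side, and the difference between them was not tested. Of the 12 measured members with a match 0 were called (limma), with 4 at an unadjusted p under 0.05 (NARS1, SLC3A2, CEBPG and AARS1), 7 were higher and 5 lower, and the median log2 fold change was 0.07. Of the 21 measured members with a window and no match 2 rose and 2 fell, 5 had an unadjusted p under 0.05 (the 4 called and KARS1), 8 were higher and 13 lower, and the median was -0.02. SLC7A11, the fifth called member, had no window. Over the whole array 6.41% of probe sets were called and 19.3% had an unadjusted p under 0.05 (limma). In the brightest class these shares were 15.6% and 37.9%. No match says only that these letters are not in this stretch.

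**Figure D4:**
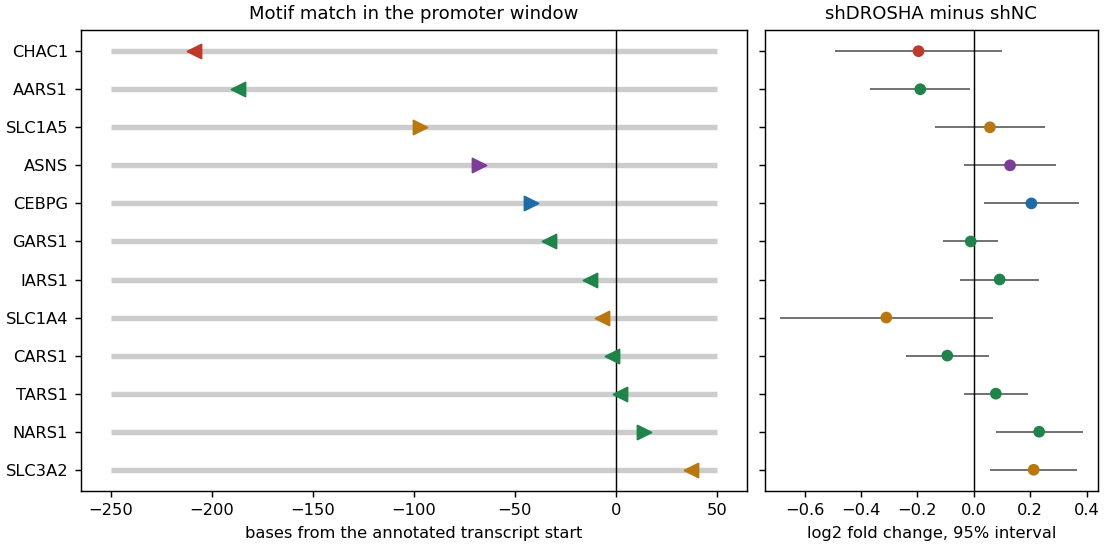
Left, where the TGATGNAA match begins in the promoter window of the 12 measured members that hold one (x axis, bases from the annotated transcript start; grey bars span the window; arrows to the right read along the gene, arrows to the left against it). Right, the log2 fold change of the same genes with its 95% interval, colored by role; none of the 12 passed, and they run from -0.31 for SLC1A4 to 0.23 for NARS1.

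Further genes of the pathway were grouped by role. Of 28 other ATF4 targets 0 were called in limma, and 4 had an unadjusted p under 0.05, which held for 19.3% of all probe sets. SLC38A1, a neutral amino acid carrier, and ATF3, a stress-induced repressor, had the smallest p, with log2 fold changes of 0.12 (adjusted p = 0.138) and 0.48 (95% interval 0.10 to 0.85, adjusted p = 0.138).

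Upstream, 2 of 14 genes rose and 0 fell among the eIF2 kinases, other regulators of eIF2 phosphorylation, the eIF2 complex and its exchange factor. Of all probe sets 3.12% rose and 3.28% fell, and in the brightest class 15.6% were called in either direction. EIF2S1, the subunit of eIF2 that the kinases phosphorylate, read 10.58 and 10.70 against 10.31 and 10.37 (log2 fold change 0.30, limma adjusted p = 0.00641). EIF2S2, the beta subunit, rose by 0.20 (limma adjusted p = 0.0147). Both calls were lost without shNC replicate 1, at 0.27 (adjusted p = 0.0579) and 0.16 (adjusted p = 0.183).

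The mitochondrial tRNA synthetases that were listed apart, nuclear-encoded enzymes that serve the organelle, showed 1 rise and 1 fall of 15, with a median of 0.0091. Called in either direction were 6.41% of all probe sets and 15.6% of the brightest class, where WARS2 and IARS2 lie. WARS2 rose by 0.32 (limma adjusted p = 0.0131), a call lost without shNC replicate 1 (adjusted p = 0.0642) or shNC replicate 2 (adjusted p = 0.0692). IARS2 fell by 0.30 (limma adjusted p = 0.0415), a call lost with centred arrays (adjusted p = 0.0777) and without shDROSHA replicate 2 (-0.16, adjusted p = 0.201) or shNC replicate 2 (-0.23, adjusted p = 0.209). The cytosolic WARS1 and IARS1 differed by -0.03 and 0.09. Of 4 measured among the remaining cytosolic synthetases and scaffolds, AIMP1, a scaffold of the multi-synthetase complex, rose by 0.23 (limma adjusted p = 0.0257). Its signal also lies in the brightest class. Only without shDROSHA replicate 2 did AIMP1 keep its call among the fits that leave out 1 array (adjusted p = 0.0575 to 0.168 in the other 3), and it was lost with a repeated quantile normalization (adjusted p = 0.0615).

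The amino acid sensing branch that DDIT4 and the sestrins act on had 2 of 20 genes that fell and 0 that rose. Its log2 fold changes were below zero in 14 and above in 6, with a median of -0.08. Of all probe sets 3.28% fell and 3.12% rose, and 9260 log2 fold changes were below zero and 9343 above. Centring the arrays adds 0.033 to each difference. Whether the branch moved as a set was not tested. SESN3, a sestrin like SESN2, also lay in the range of the blood and endothelial markers on all 4 arrays. It read 4.98 and 4.95 against 5.63 and 6.25 (log2 fold change -0.97, SE 0.206, limma adjusted p = 0.0115). It was -0.66 without shNC replicate 2 and did not pass (adjusted p = 0.129). RRAGD, a Rag GTPase that helps bring mTORC1 to lysosomes, read 7.50 and 7.32 against 8.03 and 7.84 (log2 fold change -0.53, limma adjusted p = 0.0145), and did not pass without shNC replicate 1 (-0.43, adjusted p = 0.169).

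DDIT4 is also induced by hypoxia and by glucocorticoids, and of 7 measured genes that respond to these 1 fell and 0 rose. Over the whole array 3.28% of probe sets fell and 3.12% rose. In the brightest class, which holds BNIP3, 15.6% were called in either direction. FKBP5, PER1 and CA9 were listed but not analysed here, and the hypoxia and glucocorticoid genes were not counted apart. BNIP3, a hypoxia-induced protein of mitochondrial turnover, read 10.35 and 10.31 against 10.86 and 10.79 (log2 fold change -0.49, SE 0.053, limma adjusted p = 0.000107). Without any 1 array BNIP3 stayed between -0.53 and -0.46 and passed. ADM, adrenomedullin, was higher by 0.38 and did not pass (limma adjusted p = 0.0605), and NDRG1 differed by 0.01. ZBTB16, KLF9, ANKRD37 and EGLN3 differed by 0.19, -0.11, -0.20 and 0.21, and none passed. The signals of ZBTB16, KLF9 and EGLN3 were below the median of all probe sets.

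**Figure D5:**
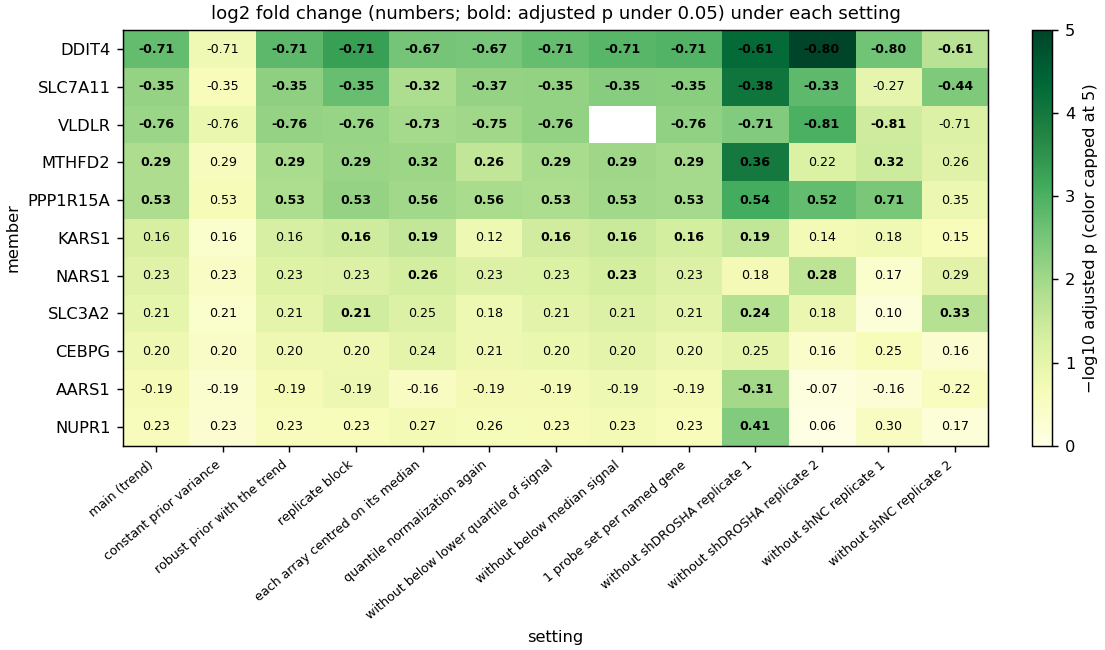
Log2 fold change (number in each cell, shDROSHA minus shNC) of the 11 members with the smallest p (rows) under the main fit and 12 other settings (columns), colored by −log10 of the adjusted p, with bold numbers where it is under 0.05 and a blank where the probe set was left out. DDIT4 is bold in every column but the constant prior, and KARS1 and NARS1 are bold in some columns and not in the main one.

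Across the series, median log2 signals were 7.21 on both shDROSHA arrays and 7.25 and 7.24 on the shNC arrays, and Pearson's r over probe sets, which are not independent replicates, was 0.9937 and 0.9945 within groups and 0.9896 to 0.992 between them. Of 7 markers of mesenchymal-like MDA-MB-231 cells 6 lay above the median signal of 7.22. The same held for 3 of 7 luminal or epithelial markers (the keratins KRT8, KRT18 and KRT19), 1 of 4 fibroblast markers (COL1A2) and 0 of 6 markers of blood and endothelial cells. SPARC (0.79) and AXL (0.33) rose, and MSN (-0.22), CAV1 (-0.23) and KRT19 (-0.35) fell (log2 fold changes), while 0 of the 10 blood, endothelial and fibroblast markers passed. The part of these differences in the results above was not tested.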

How the data were processed

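Groups were taken from the sample titles. Per the submitters' processing notes the authors deposited log2 signals made with RMA (background correction, quantile normalization, probe summary); its version and any filter are not stated there. Such normalization hides a change shared by most transcripts, and 2 arrays a group limit the precision. All 15886 named probe sets (of 18603) were matched by Entrez identifier to RefSeq symbols of GRCh38.p14. Tests were made in R 4.3.3 with limma 3.58.1 (lmFit and trended eBayes) over all probe sets of the 4 arrays, Benjamini-Hochberg adjusted, threshold 0.05, checked on simulated data. The simulated spread was set by signal alone, so that check cannot decide between the trended and the constant prior. Members, lists and the trended prior were chosen with earlier results of these data known. The trend was used because residual SD falls from 0.213 in the dimmest of 5 signal classes to 0.0672 in the brightest.

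Named were DROSHA, all members, and from other lists those past the threshold or, with none, the 2 smallest p. The genes responsive to hypoxia or glucocorticoids other than BNIP3, and the marker genes, were named after their values were seen. "Rose" and "fell" mean past the threshold. Nothing says which cultures were shared, so p-values measure the spread between these arrays. Alternatives were the constant and robust priors, a replicate block, centring, quantile normalization, filters on dim probe sets, 1 probe set per gene, other thresholds and leaving out each array.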

Additional observations from a re-analysis of the deposited data

How the results depend on the processing

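With a constant prior 0 members, 0 genes of the other lists and 1 probe set of the array, which was not that of DROSHA, were called. With the replicate number as a block the counts were 7, 9 and 1391, against 5, 8 and 1192 without it. KARS1 (adjusted p = 0.0405) and SLC3A2 (adjusted p = 0.0412) were the added members. Deviations of same-numbered arrays correlated at -0.022, so the numbers were not taken to pair the arrays. A minimum fold of 1.5 left 2 members and 245 probe sets, and an adjusted p of 0.10 gave 1824 probe sets, both by construction. Leaving out 1 array gave 3 to 9 members, 3 to 12 genes of the other lists and 535 to 1949 probe sets, the spread of a lone array being taken from the pair it was compared with. The lowest member count came without shNC replicate 2 and the highest without shDROSHA replicate 1. The other settings called 5 to 7 members. Signs turned in members near zero. With centred arrays CEBPB was 0.027, TRIB3 0.0061, SLC38A2 0.031, EPRS1 0.018, GARS1 0.022 and WARS1 0.0018, and with repeated quantile normalization CEBPB was 0.024 and HARS1 -0.0039. Without single arrays CEBPB ran from -0.083 to 0.071, SESN2 from -0.052 to 0.14, STC2 from -0.065 to 0.15, PYCR1 from -0.013 to 0.10, SLC7A5 from -0.10 to 0.020, SLC1A5 from -0.085 to 0.20, SLC38A2 from -0.13 to 0.12, EPRS1 from -0.048 to 0.018, GARS1 from -0.036 to 0.013, HARS1 from -0.034 to 0.092, LARS1 from -0.084 to 0.013, RARS1 from -0.083 to 0.013, WARS1 from -0.094 to 0.031 and YARS1 from -0.11 to 0.13. The causes were not tested. VLDLR could not be fitted without probe sets below the median signal.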
